A study of Mus musculus with 13 samples.

Results

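The tricarboxylic acid (TCA) cycle and the oxidation of pyruvate were followed through 31 genes, chosen by symbol from a list of enzymes, subunits, kinases, phosphatases and carriers. The subunits of succinate dehydrogenase were left to the respiratory chain. All 31 symbols were found among the 53278 of the count files, and all 31 were among the 15690 genes that passed the filter on low counts. RNA-seq counts came from whole hearts of 13 male C57Bl6 mice, all labelled wild type, which had surgery at 12 weeks of age and were sampled at 17 weeks. The labels of the 4 groups were Sham (n = 3, sham surgery and no injection), IR (n = 3, ischaemia-reperfusion, in which blood flow to heart muscle is stopped and then restored, with no injection), IR virus (n = 3, the same injury with a control virus injected) and IR edit (n = 4, the same injury with a working CaMKIIδ editing system injected). CaMKIIδ is a calcium-dependent kinase of heart muscle, and the study edited single bases of its gene. The labels give neither the kind or dose of virus, nor the promoter that drives the editor, nor a batch. Nothing in them says more than that the libraries are separate hearts, so p-values measure the spread between these samples.

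Pyruvate made from glucose and lactate enters mitochondria through a carrier built of Mpc1 and Mpc2. The pyruvate dehydrogenase (PDH) complex turns it into acetyl-CoA, kinases of the Pdk family switch the complex off by phosphorylation, and the phosphatases Pdp1 and Pdp2 switch it back on. The TCA cycle then oxidises the acetyl group and passes the electrons on to the respiratory chain. The adult heart makes most of its ATP this way, with fatty acids as the larger source of acetyl-CoA and with Pdk4 as the kinase that responds to fasting and fatty acids.

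Levels are CPM values, read counts set to a common library size with TMM, and differences are log2 fold changes with their standard error (SE) from edgeR's quasi-likelihood test, called where the p adjusted over all 15690 genes was under 0.05. Libraries held 20634820 to 27265276 counts, of which the mitochondrial genome's own transcripts took 29.7% to 38.5%. On the first principal component of all genes (27.5% of the variance), the Sham hearts ran from -26.5 to -22.2 and the IR and IR virus hearts from -9.17 to 3.83. IR edit replicates 1 and 3 lay at 10.2 and -2.80, and IR edit replicates 2 and 4 at 34.0 and 45.1. The Sham hearts thus stood apart at one end and IR edit replicates 2 and 4 at the other. Because these 2 hearts also stood apart from the rest of IR edit, the main counts and the genes that fell are given with and without them. The heart label was checked on markers: the summed level of 10 cardiomyocyte genes was 52491 to 63239 CPM in every library.

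In IR edit against Sham, 6 of the 31 genes fell and 0 rose: Idh1, Pdp2, Pdhb, Suclg2, Mpc2 and Dld. They sit at separate points of the route, namely the pyruvate carrier (Mpc2), the PDH complex (Pdhb and Dld), its phosphatase (Pdp2), the cycle's succinyl-CoA ligase (Suclg2) and the NADP+-linked isocitrate dehydrogenase outside the cycle (Idh1). The 6 make up 19.4% of the members. Of all genes tested, 8.01% passed in this comparison in either direction and 3.4% passed on the lower side. IR edit differs from Sham by the injury, the injection and the editing system at once, which this comparison cannot tell apart. The other 5 comparisons had 0 of the 31 past the threshold in the main fit (edgeR's quasi-likelihood test with every heart and the filter on low counts). Of all genes there passed 0.0127% in IR against Sham, 0.0127% in IR virus against Sham, 2.02% in IR edit against IR virus, 1.42% in IR edit against IR and 0% in IR virus against IR. The 3 comparisons with Sham share its 3 hearts, so their values are set side by side and not treated as separate evidence. In whole hearts, fewer heart muscle cells and less RNA per cell cannot be told apart.

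Because the 6 genes carry the finding, the stretch upstream of the start site is shown for the 4 with the smallest p. Each is 200 bases, from 250 to 51 bases before the RefSeq start in GRCm38.p6, read 5′ to 3′ on the gene's own strand, with the box CCAAT or its reverse complement ATTGG in capitals. The Idh1 stretch lies at chr1:65186530-65186729 on the minus strand (the first of its listed starts), that of Pdp2 at chr8:104591222-104591421 on the plus strand, that of Pdhb at chr14:8173043-8173242 on the minus strand and that of Suclg2 at chr6:95718897-95719096 on the minus strand.
Idh1: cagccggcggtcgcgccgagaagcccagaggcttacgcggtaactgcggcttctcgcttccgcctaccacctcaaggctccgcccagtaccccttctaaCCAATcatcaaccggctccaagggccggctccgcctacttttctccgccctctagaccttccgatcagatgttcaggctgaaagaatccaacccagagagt
Pdp2: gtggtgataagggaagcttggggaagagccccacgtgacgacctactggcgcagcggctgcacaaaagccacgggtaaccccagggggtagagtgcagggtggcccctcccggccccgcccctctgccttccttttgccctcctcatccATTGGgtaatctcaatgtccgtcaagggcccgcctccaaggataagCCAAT
Pdhb: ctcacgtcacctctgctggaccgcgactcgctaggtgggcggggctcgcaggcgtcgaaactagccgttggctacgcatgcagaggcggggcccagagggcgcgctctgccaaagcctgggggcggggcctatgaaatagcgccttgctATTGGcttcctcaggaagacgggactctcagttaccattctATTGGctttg
Suclg2: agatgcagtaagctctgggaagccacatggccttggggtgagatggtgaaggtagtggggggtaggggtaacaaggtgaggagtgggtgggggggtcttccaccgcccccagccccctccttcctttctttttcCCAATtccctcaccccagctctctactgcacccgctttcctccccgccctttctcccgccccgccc
The box is the core of the site that the factor NF-Y binds. Searched on both strands of these 200 bases, CCAAT stood in 6 of the 6 genes that fell, in 15 of the 29 members with a RefSeq entry (51.7%) and in 30.1% of the 10904 tested genes with an entry. The box was picked for counting after the 4 stretches had been seen, so these counts describe them and test nothing. The core AAGGTCA, bound by oestrogen-related receptors that control many genes of mitochondrial metabolism, does not overlap CCAAT. It stood in 0 of the 29 members and in 2.36% of the tested genes with an entry, which says only that these letters are not in this window. Idh3a and Pdp1 had no entry.

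The heat map of the 31 genes shows each heart's level relative to the mean of the Sham hearts. Over the 31 genes the median log2 difference from the Sham mean was -0.18 in IR edit replicate 1, -0.28 in replicate 2, -0.02 in replicate 3 and -0.32 in replicate 4. The IR hearts had medians of -0.09, -0.10 and -0.11, and the IR virus hearts -0.14, -0.03 and -0.14. IR edit replicate 4 was the lowest of the 13 hearts for 20 of the 31 genes, where it was the lowest for 14.3% of all genes tested. IR edit replicate 3 was below the Sham mean for 19 of the 31 genes and replicate 2 for 30.

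**Figure D1:**
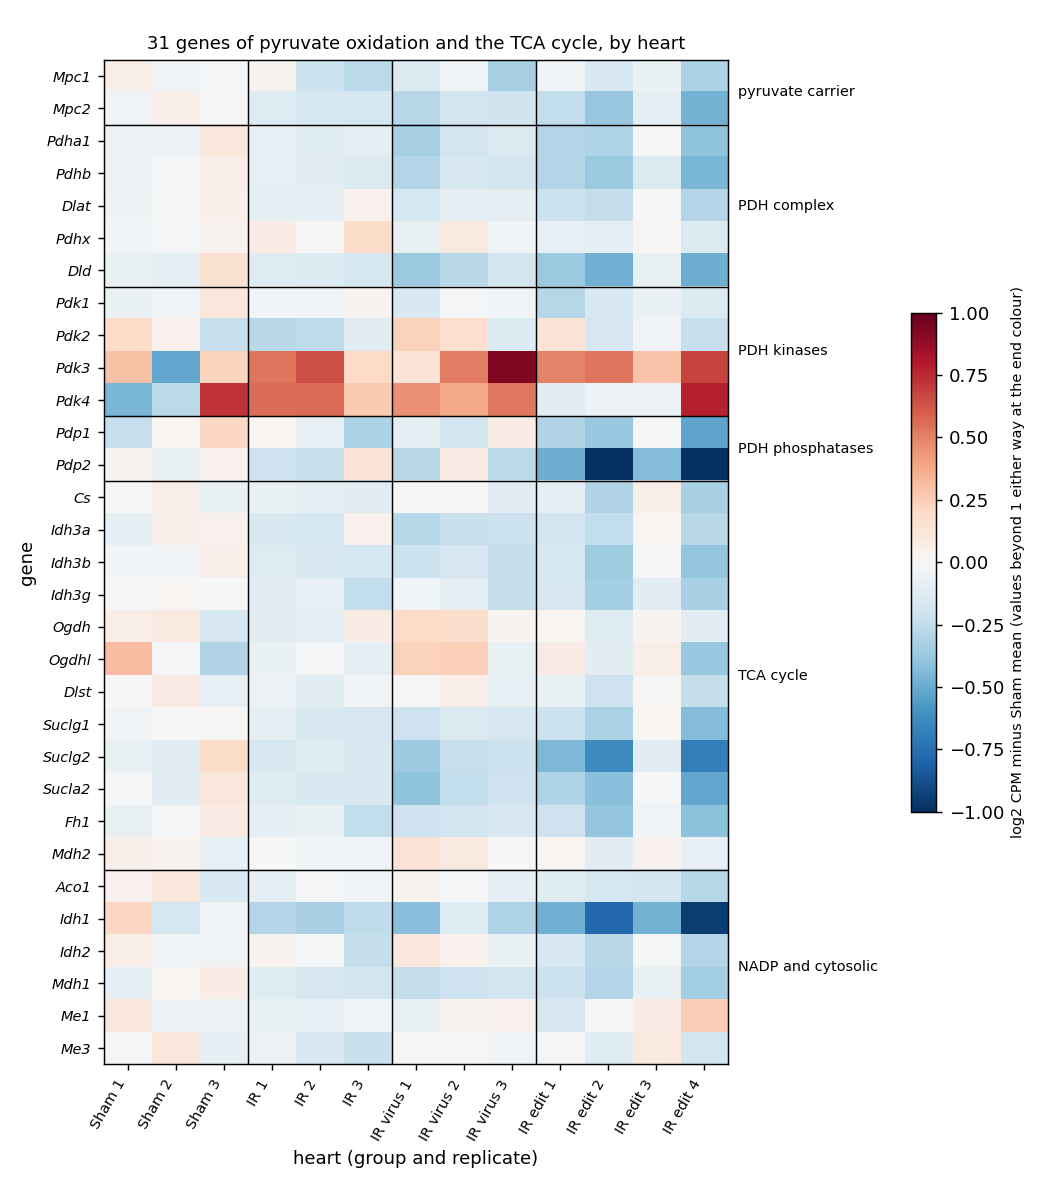
Heat map of the 31 genes (rows, ordered by role) in 13 hearts (columns, by group), coloured by log2 CPM minus the mean of the Sham hearts. Colours end at 1 in either direction. IR edit replicates 2 and 4 are the bluest columns, with medians of -0.28 and -0.32, and IR edit replicate 3 sits near Sham at -0.02.

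Idh1, which makes NADPH in the cytosol and peroxisomes from isocitrate, had the smallest p of the 31 genes. It lies on chromosome 1 from 65158616 to 65186500 on the minus strand (mm10). Its level was 78.7, 60.2 and 66.8 CPM in Sham, 55.5, 54.4 and 57.3 in IR, 51.0, 62.4 and 55.1 in IR virus, and 48.7, 39.6, 49.2 and 35.2 in IR edit. Every IR edit heart was below every other heart. Sham averaged 68.6 ± 9.40 CPM (SD, n = 3), IR edit averaged 43.2 ± 6.90 (n = 4), and the gene fell by 37.1%, a log2 fold change of -0.67 ± 0.12 (SE, adjusted p = 0.0049). In IR and in IR virus it stood at 55.7 ± 1.42 and 56.2 ± 5.79 CPM, between the other groups. Against Sham those groups had log2 fold changes of -0.30 ± 0.13 (SE, adjusted p = 0.55) and -0.29 ± 0.13 (SE, adjusted p = 0.293), and neither passed.

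Pdp2, a phosphatase that reactivates the PDH complex, showed the largest decrease. It lies on chromosome 8 from 104591451 to 104599026 on the plus strand. The hearts had 51.7, 48.4 and 52.3 CPM in Sham, 43.9, 43.2 and 55.5 in IR, 41.9, 53.7 and 42.0 in IR virus, and 36.1, 23.2, 37.5 and 20.6 in IR edit. All 4 IR edit hearts lay below the 9 others, and replicates 2 and 4 were the lowest. From 50.8 ± 2.12 CPM in Sham and 29.3 ± 8.70 in IR edit (SD), Pdp2 fell by 42.3%, a log2 fold change of -0.79 ± 0.18 (SE, adjusted p = 0.0154). Neither injured control group passed against Sham, at 47.5 ± 6.93 CPM in IR and 45.9 ± 6.78 in IR virus, with log2 fold changes of -0.10 ± 0.19 (SE, adjusted p = 0.929) and -0.15 ± 0.19 (SE, adjusted p = 0.733). Pdp1, the other phosphatase and the calcium-stimulated form, had a log2 fold change of -0.30 ± 0.13 (SE, adjusted p = 0.156) in IR edit against Sham and did not pass.

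Pdhb, the beta subunit of the pyruvate dehydrogenase enzyme itself, lies on chromosome 14 from 8165996 to 8173025 on the minus strand. Its level was 453, 473 and 495 CPM in Sham, 448, 440.3 and 428 in IR, 386, 425 and 416 in IR virus, and 387, 366, 429 and 346 in IR edit. The groups Sham and IR edit did not overlap, and IR edit replicate 3 reached into the range of the IR hearts. It fell by 19.4%, a log2 fold change of -0.31 ± 0.077 (SE, adjusted p = 0.0241). Dld, the dihydrolipoamide dehydrogenase that the PDH, 2-oxoglutarate and branched-chain keto acid complexes share, lies on chromosome 12 from 31331277 to 31351453 on the minus strand. Its hearts had 652, 643 and 759.9 CPM in Sham, 623, 619.5 and 603 in IR, 528, 562 and 600.1 in IR virus, and 529, 489, 650.2 and 488 in IR edit. Here IR edit replicate 3 stood above Sham replicate 2, so the groups overlapped, and the log2 fold change of -0.35 ± 0.10 (SE, adjusted p = 0.0447) was close to the threshold.

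Suclg2, the GTP-forming beta subunit of succinyl-CoA ligase, lies on chromosome 6 from 95473009 to 95718800 on the minus strand. Its level was 110.1, 107 and 131 CPM in Sham, 103, 106 and 104 in IR, 90.1, 98.4 and 99.8 in IR virus, and 85.0, 74.4, 107 and 72.0 in IR edit. Sham and IR edit were separate by a narrow margin, between IR edit replicate 3 and Sham replicate 2, and the gene fell by 27.2%, a log2 fold change of -0.46 ± 0.12 (SE, adjusted p = 0.0263). Mpc2, the subunit of the pyruvate carrier that pairs with Mpc1, lies on chromosome 1 from 165460637 to 165481214 on the plus strand. Its hearts had 187, 198 and 189 CPM in Sham, 175, 169.6 and 169.8 in IR, 157, 168 and 166 in IR virus, and 162, 147, 179.7 and 138 in IR edit. All 10 injured hearts were below the 3 Sham hearts, and Mpc2 fell by 18.3% in IR edit, a log2 fold change of -0.29 ± 0.080 (SE, adjusted p = 0.0382).

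**Figure D2:**
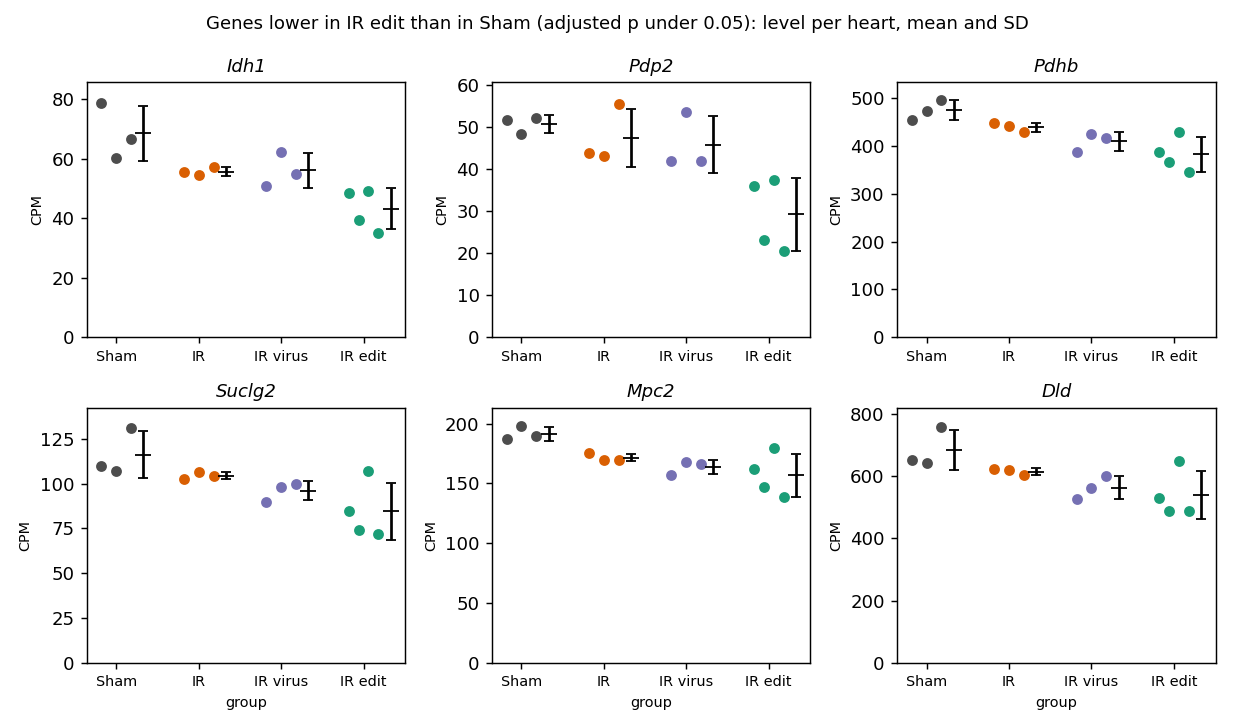
Level (CPM, linear axis from 0) of the 6 genes that fell in IR edit against Sham; points are single hearts, bars the mean and SD of each group. For Pdp2 and Idh1 all 4 IR edit points lie below every other heart, and for Dld IR edit replicate 3 lies above Sham replicate 2.

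How many genes passed depended on single hearts. With 1 heart left out in turn, 1 to 17 of the 31 were lower past the threshold: 1 without IR edit replicate 2, 2 without IR edit replicate 4, 2 without Sham replicate 3, 3 without Sham replicate 2, and 17 without IR edit replicate 3. The share of all genes that passed in either direction moved with these counts, at 3.06%, 3.52%, 4.16%, 5.02% and 15% in that order, against 8.01% with all hearts. Idh1 passed in 13 of the 13 such fits (adjusted p at most 0.0268), Pdp2 in 12, Suclg2 in 10, Pdhb in 9, Mpc2 in 3 and Dld in 1. With IR edit replicates 2 and 4 both left out, 0 of the 31 passed, against 0.994% of all genes. The log2 fold change against Sham was then -0.49 for Idh1 (adjusted p = 0.0599), -0.47 for Pdp2 (0.124), -0.28 for Suclg2 (0.348), -0.22 for Pdhb (0.308), -0.22 for Dld (0.463) and -0.17 for Mpc2 (0.457), all from edgeR's test.

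**Figure D3:**
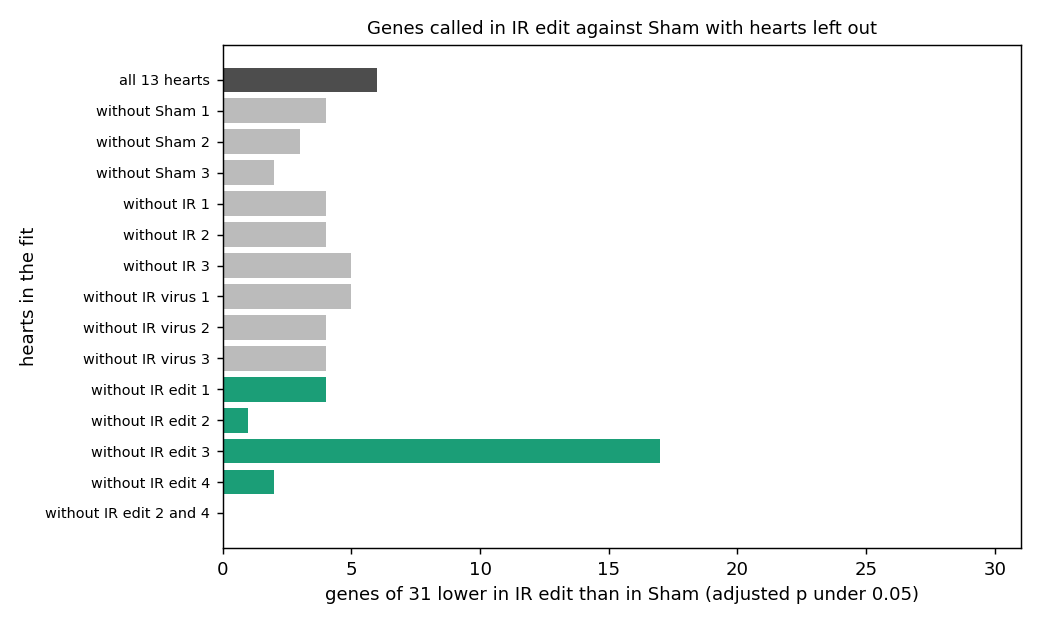
Number of the 31 genes past an adjusted p of 0.05 in IR edit against Sham, for the fit of all 13 hearts, for each heart left out, and for IR edit replicates 2 and 4 both left out. The count is 6 with all hearts, 17 without IR edit replicate 3, 1 without replicate 2 and 0 without replicates 2 and 4.

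The pyruvate carrier and the PDH complex had 7 members. Mpc1 stood at 35.1, 32.4 and 32.9 CPM in Sham, 34.2, 28.8 and 27.7 in IR, 30.4, 32.7 and 26.6 in IR virus, and 32.8, 30.1, 32.0 and 26.8 in IR edit, the groups overlapped, and its log2 fold change in IR edit against Sham was -0.14 ± 0.10 (SE, adjusted p = 0.417). Pdha1, the alpha subunit that the Pdk kinases phosphorylate, was at 997, 994 and 1123 CPM in Sham, 981, 948 and 966 in IR, 824, 909 and 937 in IR virus, and 846, 837, 1026 and 782 in IR edit. Sham was the higher group on average at 1038 ± 73.4 CPM against 873 ± 106 in IR edit, but the difference of -0.25 ± 0.090 (SE, adjusted p = 0.102) did not pass. Dlat, the acetyltransferase core, and Pdhx, the protein that binds Dld to it, had log2 fold changes of -0.18 ± 0.078 (SE, adjusted p = 0.171) and -0.08 ± 0.068 (SE, adjusted p = 0.538). All 5 subunits of the complex had a negative log2 fold change in IR edit against Sham.

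The 4 kinases of PDH had none past the threshold in the main fit of edgeR's quasi-likelihood test in any comparison. Without the filter on low counts Pdk4 passed, higher, in IR against Sham (1.87% of all genes) and in IR virus against Sham (2.7%). The values below are from the main fit unless hearts are said to be left out. Pdk4 varied widely between hearts of 1 group: it was at 215, 245 and 487 CPM in Sham, 435, 436 and 353 in IR, 405, 383 and 426 in IR virus, and 274, 283, 284 and 502 in IR edit. Sham replicate 3 and IR edit replicate 4 stood at the level of the IR hearts or above, and the other Sham and IR edit hearts below them. The log2 fold change was 0.37 ± 0.26 (SE, adjusted p = 0.74) in IR against Sham, with a 95% interval of -0.19 to 0.94, 0.36 ± 0.26 (SE, adjusted p = 0.524) in IR virus and 0.09 ± 0.25 (SE, adjusted p = 0.872) in IR edit. The sign in IR edit turned without IR edit replicate 4 (-0.17), without Sham replicate 1 (-0.13) or 2 (-0.07), and without IR edit replicates 2 and 4 (-0.18), so no direction is given. Between IR edit and IR virus Pdk4 had a log2 fold change of -0.27 ± 0.25 (SE, adjusted p = 0.645) with a 95% interval of -0.79 to 0.25, which leaves differences of either sign.

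Pdk3, the least expressed kinase, had the largest positive log2 fold change of the 31 genes in all 3 comparisons with Sham, 0.44 ± 0.25 (SE, adjusted p = 0.676) in IR, 0.53 ± 0.25 (SE, adjusted p = 0.316) in IR virus and 0.48 ± 0.23 (SE, adjusted p = 0.23) in IR edit. It rests on 28 to 82 reads per library, with 2.19, 1.21 and 2.08 CPM in Sham, 2.60, 2.81 and 2.04 in IR, 1.95, 2.56 and 3.45 in IR virus, and 2.52, 2.60, 2.17 and 2.87 in IR edit, and did not pass. Pdk2, the broadly expressed kinase, was at 237, 215 and 177 CPM in Sham, 172, 175 and 193 in IR, 244, 234 and 189 in IR virus, and 228, 185, 203 and 177 in IR edit. It had the largest positive log2 fold change in IR virus against IR, 0.31 ± 0.12 (SE, adjusted p = 0.962), and in IR edit against IR, 0.14 ± 0.11 (SE, adjusted p = 0.625). Pdk1 had -0.16 ± 0.071 (SE, adjusted p = 0.185) in IR edit against Sham. Per kilobase of exon, Pdk4 made up 45.8% ± 12.6 (SD) of the summed kinase level in Sham, 56.1% ± 4.10 in IR, 52.9% ± 3.28 in IR virus and 49.7% ± 8.41 in IR edit, shares that overlapped between the groups. On the same scale Pdp2 made up 35.8% ± 3.64 of the 2 phosphatases in Sham, 36.2% ± 5.98 in IR, 34.5% ± 5.03 in IR virus and 27.9% ± 3.92 in IR edit. The IR edit hearts were all below the Sham hearts on this share and overlapped those of IR and IR virus.

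**Figure D4:**
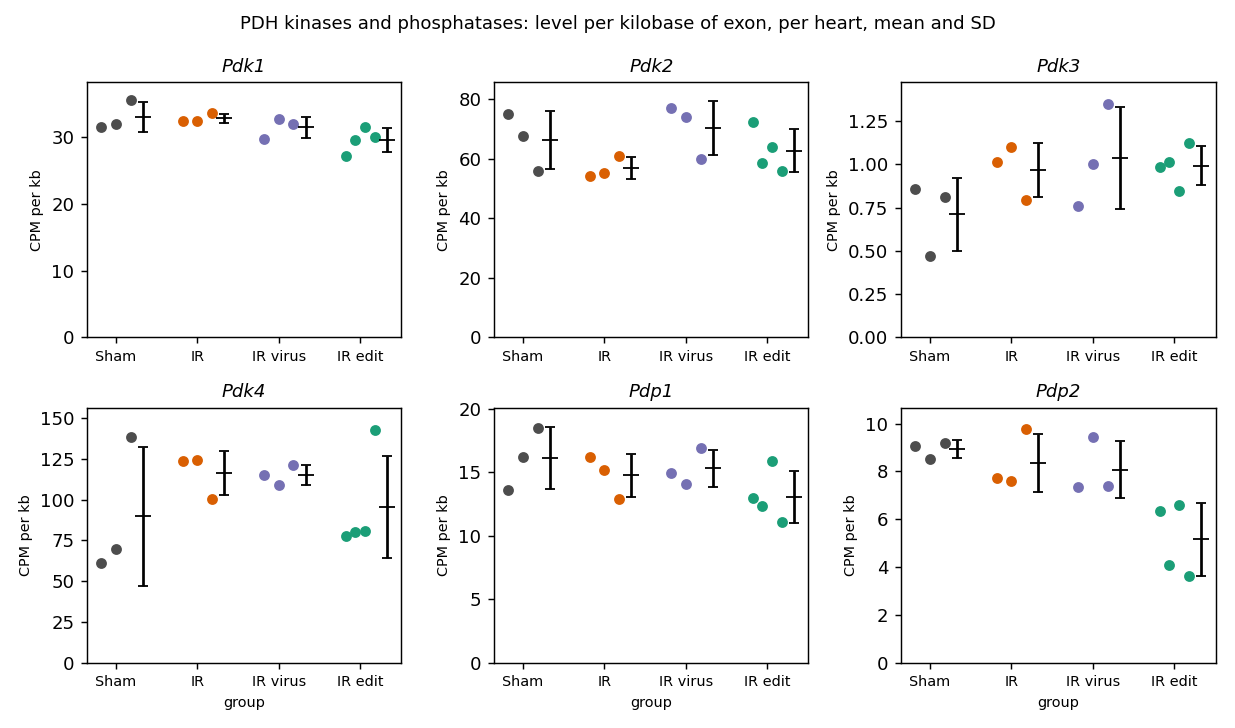
Level per kilobase of exon (CPM per kb, linear axes from 0) of the 4 PDH kinases and the 2 phosphatases; points are single hearts, bars the mean and SD of each group. Pdk4 of Sham replicate 3 and IR edit replicate 4 lies apart from the rest of the group, and the 4 IR edit points of Pdp2 lie below all others.

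The 12 enzymes of the cycle itself all had a negative log2 fold change in IR and in IR edit against Sham, with a median of -0.11 in IR and -0.20 in IR edit, and 1 of them (Suclg2) passed, in IR edit. In IR virus against Sham 9 of the 12 were negative, with a median of -0.15, and Ogdh, Ogdhl and Mdh2 were positive at 0.13, 0.12 (-0.022 without Sham replicate 3) and 0.08. Without IR edit replicates 2 and 4 the signs of Ogdh (0.02) and Mdh2 (0.028) in IR edit turned. Cs, citrate synthase, which starts the cycle, was at 1119, 1166 and 1055 CPM in Sham, 1061, 1044 and 1035 in IR, 1121, 1119.7 and 1031 in IR virus, and 1043, 904, 1158 and 889 in IR edit. The groups overlapped and the log2 fold change in IR edit against Sham was -0.16 ± 0.089 (SE, adjusted p = 0.308). Ogdh, the first enzyme of the 2-oxoglutarate dehydrogenase complex, was at 1829, 1863 and 1555 CPM in Sham, 1620.4, 1640.2 and 1832 in IR, 1999, 1969.9 and 1777 in IR virus, and 1766, 1599, 1781 and 1619 in IR edit, with a log2 fold change of -0.05 ± 0.086 (SE, adjusted p = 0.784) and a 95% interval of -0.23 to 0.13. Ogdhl, its less expressed relative, made up 9.91% ± 1.32 of their summed level per kilobase in Sham and 9.65% ± 0.913 in IR edit.

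The NAD+-linked isocitrate dehydrogenase of the cycle has an alpha subunit (Idh3a), a beta subunit (Idh3b) and a gamma subunit (Idh3g). Idh3a was at 647, 717 and 714 CPM in Sham, 621, 613 and 714 in IR, 567, 592 and 595 in IR virus, and 605, 583, 699.6 and 572 in IR edit, with every IR virus heart below every Sham heart and a log2 fold change of -0.25 ± 0.090 (SE, adjusted p = 0.238) in that comparison. It had the most negative log2 fold change in IR virus against IR, -0.15 ± 0.090 (SE, adjusted p = 0.962), and the most positive in IR edit against IR virus, 0.07 ± 0.084 (SE, adjusted p = 0.723). In IR edit against Sham, Idh3g came nearest the threshold of the 12 enzymes after Suclg2, at -0.23 ± 0.076 (SE, adjusted p = 0.072), with all IR edit hearts below all Sham hearts. Idh3b had -0.23 ± 0.082 (SE, adjusted p = 0.102) in that comparison.

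Sucla2, the ATP-forming beta subunit of succinyl-CoA ligase, had -0.30 ± 0.10 (SE, adjusted p = 0.0854) in IR edit against Sham, and Suclg1, the alpha subunit that both beta subunits use, -0.23 ± 0.086 (SE, adjusted p = 0.12). Per kilobase Suclg2 was the minor beta subunit, with 11.4% ± 0.455 of the pair in Sham, 11.4% ± 0.297 in IR, 11.5% ± 0.186 in IR virus and 10.3% ± 0.309 in IR edit. The 4 IR edit hearts ran from 9.94% to 10.7% and the other 9 from 10.9% to 11.8%, without overlap. Fh1, fumarase, had -0.25 ± 0.088 (SE, adjusted p = 0.0911) and Mdh2, the mitochondrial malate dehydrogenase, -0.03 ± 0.068 (SE, adjusted p = 0.813). Dlst, the succinyltransferase of the 2-oxoglutarate complex, had -0.12 ± 0.076 (SE, adjusted p = 0.359).

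Besides Idh1, 5 members make or use TCA intermediates outside the cycle or with NADP+. Mdh1, the cytosolic malate dehydrogenase of the malate-aspartate shuttle, had -0.23 ± 0.076 (SE, adjusted p = 0.0795) in IR edit against Sham and Idh2, the NADP+-linked mitochondrial isocitrate dehydrogenase, -0.18 ± 0.088 (SE, adjusted p = 0.23). Aco1, the cytosolic aconitase that doubles as an iron sensor, had -0.20 ± 0.074 (SE, adjusted p = 0.118), and against IR virus -0.17 ± 0.074 (SE, adjusted p = 0.291) with every IR edit heart lower. The malic enzymes Me1 and Me3, which turn malate into pyruvate, had 0.04 ± 0.086 (SE, adjusted p = 0.811) and -0.06 ± 0.079 (SE, adjusted p = 0.72). None of these 5 passed.

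In the injured hearts without editing most of the 31 genes had a negative log2 fold change against Sham. So did the mRNAs of the mitochondrial genome and, in IR, most cardiomyocyte markers. The 13 mitochondrial mRNAs were negative in 13 of 13 in IR (median -0.15) and in IR virus (median -0.23), and in 12 of 13 in IR edit (median -0.26). The 10 cardiomyocyte markers were negative in 8 in IR (median -0.12), in 6 in IR virus (median -0.10) and in 7 in IR edit (median -0.16). Of all genes 49.8% were negative in IR, 48.3% in IR virus and 50.2% in IR edit. In IR against Sham 28 of 31 had a negative log2 fold change, with a median of -0.11, where 49.8% of all genes were negative and their median was 0.00098. Every IR heart was below every Sham heart for 11 of the 31 (6.45% of all genes), and an unadjusted p under 0.05 was met by 1 (Idh1) on the lower side (3.08% of all genes) and 0 on the higher (5.25%). In IR virus against Sham 24 of 31 were negative with a median of -0.12, every heart was lower for 13 (10.3% of all genes), and an unadjusted p under 0.05 was met by 10 on the lower side (6.72%) and 1, Pdk3, on the higher (8.64%). DESeq2's Wald test also called 0 of the 31 in both comparisons, with 0.275% and 1.31% of all genes. In IR edit against Sham 28 of 31 were negative with a median of -0.18 (25 of 31 with a median of -0.10 without IR edit replicates 2 and 4), every heart was lower for 6 (8.18% of all genes), and an unadjusted p under 0.05 was met by 17 on the lower side (11.2%) and 0 on the higher (12.4%).

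**Figure D5:**
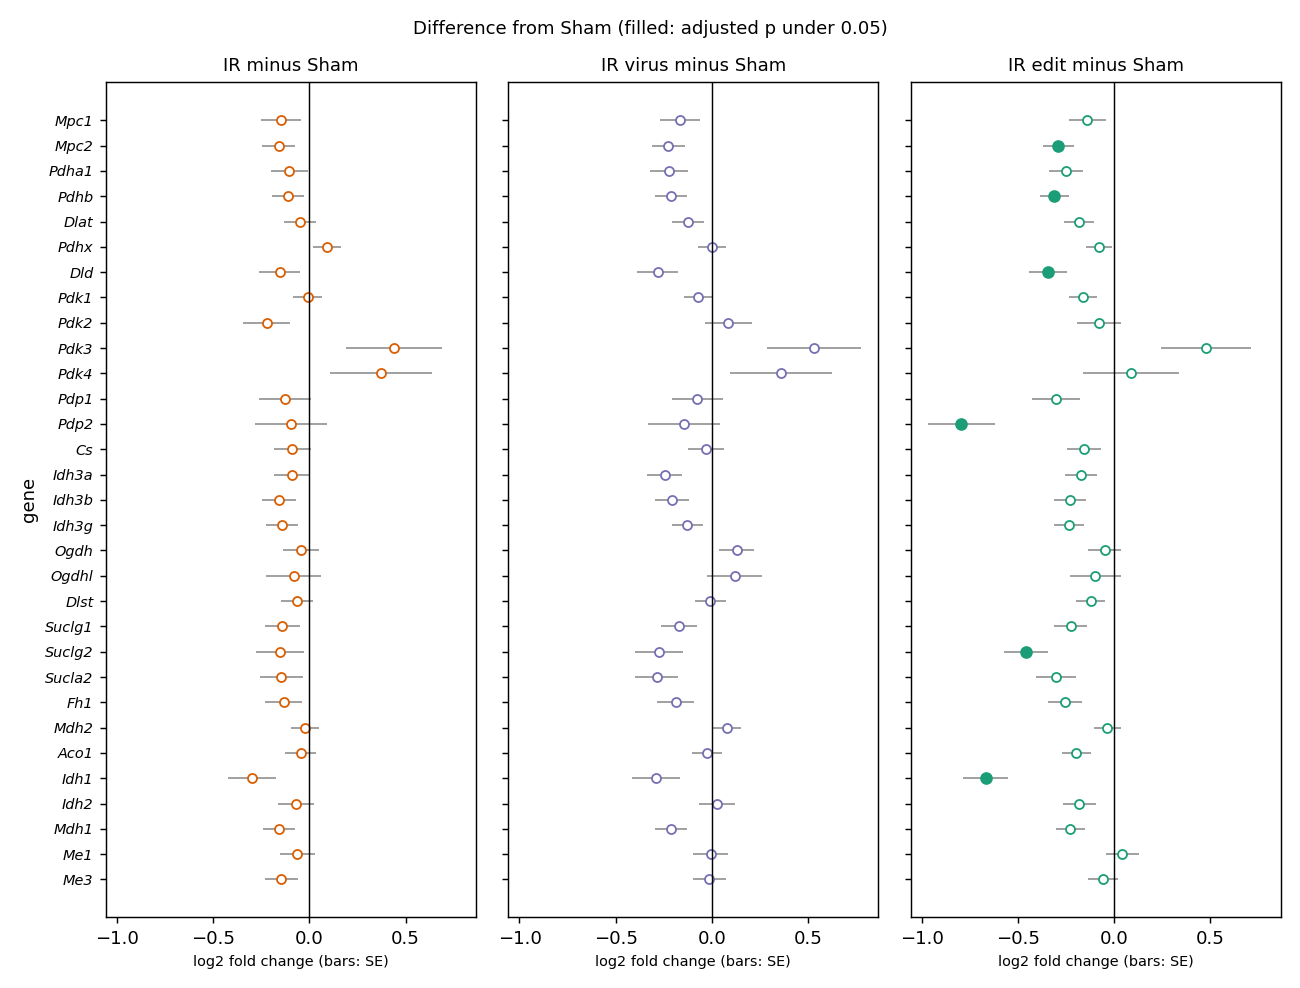
Log2 fold change against Sham with its SE for each of the 31 genes in IR, IR virus and IR edit (edgeR), with filled symbols for an adjusted p under 0.05. Most genes lie below 0 in all 3 groups, which share the Sham hearts, and the 6 genes past the threshold are those of IR edit.

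The comparisons of IR edit with the other injured hearts set the editing system beside the same injury. The IR virus hearts also had an injection, and the IR hearts had none, so the comparison with IR holds the injection as well. Against IR virus 28 of 31 genes had a negative log2 fold change with a median of -0.09, and against IR 26 of 31 (25 with DESeq2's size factors) with a median of -0.11. An unadjusted p under 0.05 on the lower side was met by 4 of 31 against IR virus (7.95% of all genes) and by 5 against IR (7.48%), and on the higher side by 0 in both (7.21% and 7%). Every IR edit heart was lower for 3 of 31 against IR virus (7.07% of all genes) and 5 against IR (6.85%). Pdp2 had the most negative value in both, -0.65 ± 0.18 (SE, adjusted p = 0.0797) against IR virus and -0.70 ± 0.18 (SE, adjusted p = 0.0643) against IR, with every IR edit heart lower. It was the 1 gene of the 31 that DESeq2's Wald test called in each, with 2.99% and 2.59% of all genes. Idh1 was also lower in every IR edit heart and did not pass, at -0.38 ± 0.12 (SE, adjusted p = 0.128) and -0.37 ± 0.12 (SE, adjusted p = 0.153). With IR edit replicates 2 and 4 left out the medians were -0.02 and -0.0069, and the signs of Mpc2 (0.06) and Dld (0.07) against IR virus turned. IR virus against IR had 17 of 31 negative, a median of -0.02 and 0 called by DESeq2. In that comparison an unadjusted p under 0.05 was met by 0 on the lower side (1.59% of all genes) and 1, Pdk2, on the higher (2.26%). The hearts did not overlap for 8 lower (6.09% of all genes) and 2 higher (5.86%).

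Compared per kilobase of exon, Mdh1 had the highest level of the 31 in Sham with 681 to 763 CPM per kb over the 3 hearts, followed by Idh2 with 453 to 486, Ogdh with 285 to 342 and Pdha1 with 266 to 301. The last 2 overlapped and the others did not. These 4 held the first 4 places in all 4 groups. Me3 with 3.49 to 4.04 and Pdk3 with 0.471 to 0.855 held the last 2 places in all groups. The places depend on the length used, the union of all annotated exons, which was 14624 bases for Me3. In CPM, Me3 averaged 54.6 in Sham, above Pdp2 (50.8), Aco1 (38.1) and Mpc1 (33.5). Of the genes that fell, Dld (174 to 206) and Pdhb (117 to 128) were among the more abundant and Pdp2 (8.49 to 9.19) among the least.

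Genes next to the route were read from lists of carriers and anaplerotic enzymes, cofactor genes, related keto acid dehydrogenases and regulators. In IR edit against Sham 2 of 19 carriers and anaplerotic genes fell, 2 of 12 cofactor genes, 2 of 6 genes of related dehydrogenases and 1 of 13 regulators, and none of these lists had a gene that rose. The share of all genes that passed on the lower side was 3.4%. Bckdhb and Dbt, subunits of the branched-chain keto acid dehydrogenase complex that also uses Dld, had log2 fold changes of -0.58 ± 0.12 (SE, adjusted p = 0.00976) and -0.54 ± 0.13 (SE, adjusted p = 0.0227). Pank1, the kinase that opens coenzyme A synthesis, had -0.57 ± 0.12 (SE, adjusted p = 0.0144), and Slc25a42, the mitochondrial coenzyme A carrier, -0.50 ± 0.14 (SE, adjusted p = 0.0423). Oxct1, which activates ketone bodies for the cycle, had -0.25 ± 0.070 (SE, adjusted p = 0.0394) and Ldhb, the heart-type lactate dehydrogenase subunit, -0.36 ± 0.10 (SE, adjusted p = 0.0456). Foxo3, a transcription factor of starvation and stress, had -0.73 ± 0.14 (SE, adjusted p = 0.00858). In the other 5 comparisons 0 genes of these lists passed in the main fit of edgeR's test. Left-out hearts kept Bckdhb and Foxo3 past the threshold in 13 of 13 fits, Pank1 in 11, Dbt in 9, Slc25a42 in 5, Ldhb in 3 and Oxct1 in 2. None of the 7 passed without IR edit replicates 2 and 4, where their log2 fold changes ran from -0.60 (Foxo3) to -0.18 (Ldhb) with an adjusted p of 0.0992 or more, or in a fit of only the 2 groups, with an adjusted p of 0.0607 or more.

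Markers of the cell types in a heart are given beside these counts. In IR edit against Sham none of the tested endothelial, macrophage, smooth muscle, red blood cell and white fat markers passed in edgeR's test. Positive log2 fold changes were found for 2 of 5 endothelial, 5 of 6 macrophage, 0 of 4 smooth muscle, 2 of 5 red blood cell and 1 of 3 white fat markers. The 10 cardiomyocyte markers summed to 56551 to 63239 CPM in Sham, 54233 to 56442 in IR, 56501 to 60557 in IR virus and 57897, 55427, 61044 and 52491 in IR edit replicates 1 to 4, and 0 of 10 passed in IR edit against Sham. The 7 fibroblast markers summed to 851 to 873 in Sham, 993 to 1400.4 in IR, 1082 to 1412 in IR virus and 1008, 1365, 911 and 1701 in IR edit replicates 1 to 4. In IR edit against Sham 4 of 7 rose, where 723 of all 15690 genes rose. In IR and in IR virus against Sham 0 of 7 passed, but 7 of 7 were positive in all 3 comparisons. An unadjusted p under 0.05 in edgeR's test was met on the higher side by 6 in IR (5.25% of all genes), 6 in IR virus (8.64%) and 4 in IR edit (12.4%). IR edit replicates 2 and 4 thus had the lowest sums of the TCA and pyruvate genes (12005 and 11963 CPM, against 12957 and 14292 in replicates 1 and 3 and 13487 to 14730 in the other groups), the lowest cardiomyocyte sums of IR edit and its highest fibroblast sums. The part of these markers in the result was not tested. As a share of the cardiomyocyte marker sum, Pdp2 was 0.0623% or less in every IR edit heart and 0.0739% or more in every other heart, and Idh1 0.0841% or less against 0.0899% or more. The other 4 genes that fell did not separate from all other hearts on this share. Dld reached 1.07% in IR edit, above the lowest Sham heart at 1.02%, and Suclg2 reached 0.175%, above the lowest Sham heart at 0.170%. Mpc2 and Pdhb, at most 0.294% and 0.704% in IR edit, stayed below Sham and overlapped IR virus. Of the 3 brown fat markers, Ucp1 had 0 reads in 12 of 13 libraries and 2 reads in the other, Elovl3 had 0 reads in 8 of 13, and Cidea was detected in all 13. The sum of the 3, nearly all of it Cidea, was 10.7 to 12.4 CPM in Sham, 10.8 to 12.6 in IR, 11.9 to 13.8 in IR virus and 11.9, 15.6, 12.3 and 16.5 in IR edit replicates 1 to 4. Cidea had a log2 fold change of 0.30 ± 0.12 (SE, adjusted p = 0.138 in edgeR's test) in IR edit against Sham. The skeletal muscle myosin Myh4 had at most 3 reads in a library, and Tnnt3 of the same list, found in all 13, at most 15. The 3 atrial markers summed to 55.5, 51.2 and 5.30 CPM in Sham replicates 1 to 3, 52.1 to 73.6 in IR, 52.4 to 76.4 in IR virus and 22.5, 56.6, 15.7 and 13.5 in IR edit replicates 1 to 4. All 3 had a negative log2 fold change in IR edit against IR virus (median -1.39) and against IR (median -1.27), and 0 of 3 passed. The part of the atrial and brown fat markers in the result was likewise not tested.

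Some of the counts are uncertain because the strand setting of the counting was not given in the sources used here. In the GENCODE annotation 9 of the 31 genes share their interval with a gene on the other strand, namely Mpc1, Pdha1, Pdk2, Idh3b, Sucla2, Fh1, Mdh1, Me1 and Me3, and 0 of the 6 that fell do. On the same strand, Mpc2, which is among the 6, shares its interval with the annotated gene Gm37860. Cs, Idh2, Mdh1, Me1 and Me3 also share theirs with a gene on the same strand. Such overlaps can make reads ambiguous whatever the strand setting, and their part in the counts was not tested. Mpc1 also has a pseudogene copy, Mpc1-ps, that could take or lend reads.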

How the data were processed

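Whole-heart RNA of 13 mice was sequenced. The authors deposited 1 file of raw counts for each library, with a gene symbol and a whole number per line. The submitters' processing notes name genome build mm10 and, as tools, featureCounts 1.6.2, HISAT2 2.1.0, Trimmomatic 0.39 and FastQC 0.11.8. Which annotation and strand setting were used in counting was not given in the sources used here. Groups came from the sample titles. In R 4.3.3, edgeR 4.0.16 scaled libraries by TMM, dropped low genes with filterByExpr and fitted group means to all 13 libraries with the quasi-likelihood test (9 residual and 6.08 prior degrees of freedom, common biological coefficient of variation 0.116), with Benjamini-Hochberg adjustment over 15690 genes and a threshold of 0.05. The SE was obtained from the log2 fold change and F, as their quotient with the root of F. Gene positions and exon lengths came from GENCODE M21, promoters from RefSeq. The fit was also run on simulated counts, with planted changes larger than those of the genes that fell and no heart made to stand apart. That run therefore says nothing about these calls.

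The members and gene lists were chosen with earlier results of these data known. Genes named with values for each heart were those past the threshold, the largest log2 fold change of either sign in each comparison, and Cs, Pdha1, Pdk4, Mpc1 and Ogdh; from the neighbouring lists, at most 3 genes past the threshold by smallest p. Alternatives were DESeq2's size factors and DESeq2 1.42.0's Wald test, all genes kept, at least 1 CPM in 3 libraries, no mitochondrial transcripts, only the 2 groups compared, the title number as a block, and each heart left out.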

Additional observations from a re-analysis of the deposited data

Results flagged for a closer look

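Of 32 quantities tested in the 4 IR edit hearts (the level of each of the 31 genes and their summed level), 1 had a heart whose gap to its nearest neighbour exceeded Dixon's critical value for 4 samples. Pdk4 was at 502 CPM in IR edit replicate 4, with the nearest heart at 284 CPM. Chance flags about 1 in 20 groups, or 1.6 of 32. Sham replicate 3 also stood high for Pdk4, at 487 CPM beside 215 and 245 CPM, in a group too small for that check.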

How the results depend on the processing

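The number of the 31 genes past the threshold in IR edit against Sham was 6 as reported, 5 with DESeq2's size factors, 6 without mitochondrial transcripts or with 1 CPM in 3 libraries, 8 with DESeq2's Wald test, 10 without a filter and 1 (Idh1) in a fit of only the 2 groups. Of all genes 8.01% passed as reported, and in the last 3 settings 10.5%, 6.9% and 1.62%. It ran from 1 to 17 with a heart left out and was 0 without IR edit replicates 2 and 4, an alternative chosen after seeing the data. The labels do not say whether the numbers in the titles pair the hearts. Same-numbered hearts correlated by -0.13 to 0.221, with at most 1 of 3 pairs over 0.1 in a comparison. In each comparison with IR edit 2 of 3 hearts correlated best with their own number, in IR virus against Sham 1, and in the other comparisons 0. With 3 pairs per comparison this check cannot exclude pairing. With the title number as a block 3 genes passed (Pdp2, Suclg2 and Idh1), with 3.76% of all genes, and 0 in the other 5 comparisons. Without a filter 1 gene passed in IR against Sham (Pdk4, higher), with 1.87% of all genes. In that setting 2 passed in IR virus against Sham (Pdk4 higher, Sucla2 lower), with 2.7%. IR edit against IR virus had 2 (Pdp2 and Idh1, with 3.18%) and IR edit against IR had 3 (Pdp2, Suclg2 and Idh1, with 3.19%). DESeq2's Wald test called 1 (Pdp2) in each of these last 2 comparisons, with 2.99% and 2.59% of all genes. With a heart left out, edgeR's test gave 0 to 1 against IR virus and 0 to 2 against IR. Against IR virus the 1 came without IR edit replicate 1 or 3 (3.06% and 2.77% of all genes). Against IR 1 passed without replicate 1 (1.93%) and 2 without replicate 3 (3.13%). In IR virus against IR all settings gave 0. The cause of these shifts was not tested. Signs turned for Pdk4 in IR edit against Sham with the block (-0.13), without Sham replicate 1 (-0.13) or 2 (-0.07), without IR edit replicate 4 (-0.17) and without IR edit replicates 2 and 4 (-0.18). They also turned in that comparison for Me1 with the block (-0.032), without IR edit replicate 4 (-0.029) and without replicates 2 and 4 (-0.040), for Me3 without Sham replicate 2 (0.00107) and without IR edit replicates 2 and 4 (0.039), for Ogdh (0.020) and Mdh2 (0.028) without these 2 hearts, and against IR virus for Mpc2 without IR edit replicate 4 (0.00192) and for Mpc2 (0.059) and Dld (0.065) without both. With a heart left out, Pdk4 ranged from -0.17 to 0.55, Me1 from -0.029 to 0.11 and Me3 from -0.11 to 0.00107 in IR edit against Sham, and Mpc2 from -0.13 to 0.00192 against IR virus. Ogdhl in IR virus against Sham ranged from -0.022 (without Sham replicate 3, where its sign turned) to 0.28. Of 1385 values that alternatives gave for 67 log2 fold changes of the 31 genes, 1294 kept their direction and side of the threshold, 45 no longer passed, 30 passed newly and 16 turned sign. The 45 all fell on the 6 genes that passed in IR edit against Sham, since only these could stop passing. Dld passed in 1 of 13 fits with a heart left out and in 4 of 8 other settings, Mpc2 in 3 and 5, and Idh1 in 13 and 7. The 1294 thus say little about how stable the 6 calls were. Of 147 such values for the 7 neighbouring genes named, 95 were kept and 52 no longer passed.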
